A study of Mus musculus with 7 samples.

Results

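The colony-stimulating factor receptors and the ligand M-CSF were examined in RAW264.7, a mouse leukaemia line with macrophage properties, in cells labelled either as Gfi1 knockout or as wild type. The members were taken by name: the ligand gene Csf1 and the receptor genes Csf1r, Csf3r, Csf2ra and Csf2rb. All 5 were measured, among 9999 genes in all, and each was read from the brightest, on average over the 7 arrays, of the probe sets that name that gene alone. There were 4 arrays labelled Gfi1 knockout and 3 labelled wild type, all from untreated cells at the time point labelled T0. The knockout titles read RAW GfI1-1, and the sources used here do not explain that ending. The titles call each array a biological replicate. The sources do not say how the gene was edited or whether replicates came from separate cultures. The spread behind each p-value is therefore that between arrays and may be technical.

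M-CSF, the product of Csf1, is the growth factor on which most macrophages depend for survival and proliferation. It binds the receptor tyrosine kinase encoded by Csf1r, whose expression is a defining feature of the macrophage lineage. GM-CSF, the product of Csf2, binds a receptor made of a specific alpha chain, Csf2ra, and the common beta chain, Csf2rb, which the IL-3 and IL-5 receptors share and which signals through JAK2 and STAT5. Mice carry a second beta chain gene, Csf2rb2, whose product serves the IL-3 receptor. G-CSF, the product of Csf3, acts on Csf3r, the receptor that drives granulocyte production. Gfi1 is a zinc finger repressor that favours granulocyte over macrophage development, and Csf1 and Csf1r have been described as targets of its repression in mouse blood progenitors.

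The Gfi1 probe set itself was higher in the arrays labelled knockout, with log2 signals of 4.93, 5.02, 3.97 and 3.97 in knockout replicates 1 to 4, against 2.66, 2.85 and 2.98 in wild type. The wild-type mean of 2.83 lay among the lowest 5% of genes (below 3.51), so the size of this rise in the Gfi1 probes is uncertain. The position of these probes with respect to the edited part of the gene is not given in the sources used here, so the signal is no check of the labels, on which every direction below rests. The knockout arrays fell into similar pairs. The SD of the log2 difference over 19431 probe sets was 0.16 between knockout replicates 1 and 2 and 0.14 between replicates 3 and 4, but 0.52 to 0.54 between the pairs, against 0.13 to 0.19 among wild-type arrays. Of all 9999 genes, 43.1% passed the test of knockout against wild type (limma, adjusted p of at most 0.05), with 21.5% higher and 21.6% lower in knockout. The array medians ran from 93.8 to 101 on the linear scale of the deposited signal.

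The macrophage label of the line was checked against its markers. Of 12 macrophage markers 10 were measured, and in knockout 7 of these fell and 0 rose, beside 21.6% and 21.5% of all genes (median log2 difference -0.53, against -0.01 over all genes). Their summed linear signal was 17980 to 19020 in knockout arrays and 25440 to 26010 in wild-type arrays. The largest falls were in the pore-forming protein gene Mpeg1 (-2.03), the F4/80 antigen gene Adgre1 (-1.51), the lysosomal membrane protein gene Laptm5 (-0.71) and Cd68 (-0.68), and the lysozyme gene Lyz2, the brightest of the list, fell by 0.45. With the similar arrays treated as random blocks, Laptm5 and Lyz2 did not pass (limma adjusted p = 0.0722 and 0.116). None of 12 neutrophil, 6 T cell or 5 mast cell markers was among the genes analysed here.

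The stretches upstream of the annotated starts of Csf1, Csf3r and Csf2ra are shown. These genes differed in how they behaved across the knockout arrays, as described further on. No stretch is shown for the other members, Csf2rb and Csf1r, so nothing here bears on Csf1r, the member that passed the test. Each stretch shown is the 250 bases before the start, from RefSeq on GRCm38.p6, written 5′ to 3′ along the gene. Csf1 lies on the minus strand at chr3:107760470-107760719, Csf3r on the plus strand at chr4:126024409-126024658 and Csf2ra on the minus strand at chr19:61228419-61228668. Capitals mark matches, on either strand, to AATC (the core bound by GFI1), GAGGAA (a PU.1 core), TTGCNNAA (a C/EBP form) or the NF-kappaB consensus.
Csf1: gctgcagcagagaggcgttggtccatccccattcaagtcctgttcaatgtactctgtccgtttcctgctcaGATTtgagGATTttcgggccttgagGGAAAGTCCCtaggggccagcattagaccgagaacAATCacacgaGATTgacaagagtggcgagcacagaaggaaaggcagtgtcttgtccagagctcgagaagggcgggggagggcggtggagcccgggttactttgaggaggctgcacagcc
Csf3r: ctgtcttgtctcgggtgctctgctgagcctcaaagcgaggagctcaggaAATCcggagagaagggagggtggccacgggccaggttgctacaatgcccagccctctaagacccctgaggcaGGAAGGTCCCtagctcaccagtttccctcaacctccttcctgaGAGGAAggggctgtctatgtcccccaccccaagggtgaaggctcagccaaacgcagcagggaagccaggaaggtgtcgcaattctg
Csf2ra: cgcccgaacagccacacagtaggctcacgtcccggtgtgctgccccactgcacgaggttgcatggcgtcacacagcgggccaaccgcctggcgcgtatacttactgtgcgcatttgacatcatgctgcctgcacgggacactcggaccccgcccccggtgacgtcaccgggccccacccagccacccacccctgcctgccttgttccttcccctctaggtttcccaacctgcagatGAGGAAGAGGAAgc

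The Csf1 window held 4 matches to AATC and 1 to the NF-kappaB consensus, which began at position -154, counted from -1 for the base before the start. The Csf3r window held 1 match each to AATC, to the NF-kappaB consensus (from -129) and to GAGGAA (from -86). The Csf2ra window held 2 adjacent GAGGAA matches, from -14 and -8, and none of the other motifs. No window held TTGCNNAA. Among 32851 promoter windows of the same length, 69.0% held AATC, 23.3% GAGGAA, 9.56% TTGCNNAA and 7.25% the NF-kappaB consensus, so an AATC match alone sets no promoter apart. These are letter matches and were not tested as binding sites.

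Among the receptors, Csf1r, the M-CSF receptor gene, fell in knockout and was the only one of the 5 members to pass the test. That is 1 of 5 members, beside 21.6% of all genes lower in knockout. Its log2 signal was 12.26, 12.26, 12.33 and 12.32 in knockout replicates 1 to 4, against 12.92, 12.88 and 12.88 in wild-type replicates 1 to 3. All knockout arrays lay below all wild-type arrays, and the knockout values spanned less than 0.1 on the log2 scale. The mean was 12.29 ± 0.04 (SD, n = 4) in knockout and 12.89 ± 0.02 (SD, n = 3) in wild type, a difference of -0.60 (SE 0.06, limma adjusted p = 0.000264, 95% interval -0.73 to -0.47). In linear signal the knockout level was 65.9% of the wild-type level.

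Csf1r remained among the brightest genes in every array. Its signal exceeded that of 99.2% of genes in each knockout array and of 99.7% in each wild-type array. By size, 20.9% of all genes differed by more than Csf1r in either direction, and the median absolute log2 difference over all genes was 0.278. The macrophage markers given above fell alongside it, and their part in the result was not tested. Fewer cells of a type and less RNA per cell cannot be told apart in these samples.

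Of the 3 Csf1r probe sets, all gave the same direction, and in each the 4 knockout arrays lay below the 3 wild-type arrays. In a fit over all probe sets, where 20.5% were lower in knockout, the probe set 1419872_at used above differed by -0.60 (limma adjusted p = 0.000456). The dimmer probe set 1419873_s_at had log2 signals of 11.32, 11.30, 11.26 and 11.19 in knockout replicates 1 to 4, against 12.14, 12.03 and 12.07 in wild type, a difference of -0.81 (SE 0.07, adjusted p = 0.000214). The probe set 1423593_a_at had 9.69, 9.72, 9.58 and 9.62 in knockout, against 10.39, 10.26 and 10.30 in wild type, a difference of -0.66 (SE 0.07, adjusted p = 0.000587). The probe sets therefore gave a fall between -0.60 and -0.81, and their absolute signals are not comparable with one another.

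**Figure D1:**
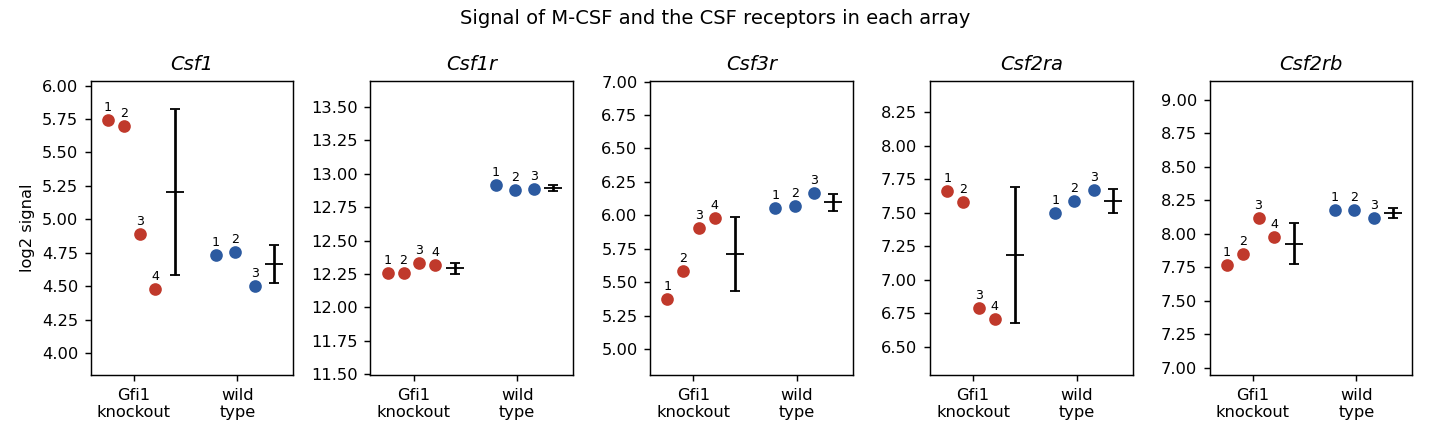
Log2 signal of the 5 genes in each array, with numbered points for the replicates of Gfi1 knockout (red) and wild type (blue), and black marks for the mean ± SD of each group; each panel spans the same number of log2 units. The 4 knockout points of Csf1r sit together below wild type, while those of Csf1 and Csf2ra split into replicates 1 and 2 and replicates 3 and 4.

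The ligand gene Csf1 was higher in some knockout arrays only. Its log2 signal was 5.75, 5.70, 4.89 and 4.48 in knockout replicates 1 to 4, against 4.73, 4.76 and 4.50 in wild-type replicates 1 to 3. Replicates 1 and 2 lay about 1 log2 unit above the wild-type mean (1.08 and 1.03), replicate 3 lay 0.23 above it, and replicate 4 lay at -0.19, below every wild-type array. The groups overlapped, and the mean difference of 0.54 (SE 0.32, limma adjusted p = 0.205, 95% interval -0.21 to 1.28) did not pass the test. Without knockout replicate 4 the difference was 0.78 and passed (adjusted p = 0.0386), and the fit without replicates 3 and 4 gave 1.06 (adjusted p = 9.46e-05), whereas the fit without replicates 1 and 2 gave 0.02 (adjusted p = 0.912). Csf1 was a dim gene here, above 10.9% to 23.3% of genes in knockout arrays and 10.8% to 12.9% in wild-type arrays.

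The ligand and its receptor were compared by the within-array log2 difference of Csf1 and Csf1r, which tests for unequal change and not for a difference in level. Relative to the wild-type mean, Csf1 minus Csf1r stood at 1.71, 1.67, 0.79 and 0.39 in knockout replicates 1 to 4. The SD over the 3 wild-type arrays was 0.14, and all 4 knockout arrays lay above them. The mean shift of 1.14 had a two-sided exact permutation p of 0.0571, where the smallest p that the 35 arrangements allow is 0.0286. After adjustment over the 3 gene pairs compared, p was 0.171, so an unequal change of ligand and receptor was not established.

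Csf3r, the G-CSF receptor gene, was lower in each knockout array but did not pass the test. Its log2 signal was 5.38, 5.59, 5.90 and 5.98 in knockout replicates 1 to 4, against 6.05, 6.07 and 6.17 in wild type. The groups did not overlap, as was true of 54.5% of all genes (27.9% with knockout below and 26.5% with knockout above wild type), but replicates 3 and 4 lay close to wild type. The difference of -0.39 (SE 0.15, limma adjusted p = 0.0727, 95% interval -0.74 to -0.04) became -0.48 and passed without knockout replicate 4 (adjusted p = 0.0339). Without replicates 3 and 4 it was -0.62 (adjusted p = 0.000616), and without replicates 1 and 2 it was -0.16 (adjusted p = 0.0630). With the similar arrays treated as random blocks its adjusted p was 0.368. Csf3r minus Csf1r shifted by 0.22 (exact permutation p = 0.257, adjusted p = 0.386), so an unequal change of the granulocyte and the macrophage receptor was not established.

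The GM-CSF receptor chains showed yet another pattern across the knockout arrays. Csf2ra, the specific alpha chain gene, had log2 signals of 7.66, 7.58, 6.79 and 6.70 in knockout replicates 1 to 4, against 7.50, 7.59 and 7.67 in wild type. Replicates 1 and 2 lay within the wild-type range, whereas replicates 3 and 4 lay at -0.80 and -0.88 relative to the wild-type mean. The mean difference of -0.40 (SE 0.26, limma adjusted p = 0.242, 95% interval -1.01 to 0.20) did not pass. It was -0.84 without replicates 1 and 2 (adjusted p = 0.000145) and 0.04 without replicates 3 and 4 (adjusted p = 0.672).

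Csf2rb, the common beta chain gene, had log2 signals of 7.76, 7.85, 8.12 and 7.97 in knockout replicates 1 to 4, against 8.17, 8.18 and 8.12 in wild type. Replicates 1 and 2 lay lowest, and replicate 3 overlapped wild type. The difference was -0.23 (SE 0.09, limma adjusted p = 0.0825, 95% interval -0.45 to -0.01), and it was -0.29 without knockout replicate 3 (adjusted p = 0.0242), -0.35 without replicates 3 and 4 (adjusted p = 0.00162) and -0.11 without replicates 1 and 2 (adjusted p = 0.179). With the similar arrays as random blocks its adjusted p was 0.495. The dimmer Csf2rb probe set, 1421326_at, had 4.95, 5.31, 5.25 and 5.64 in knockout, against 5.72, 5.55 and 5.41 in wild type, also with overlapping groups. Csf2ra minus Csf2rb stood at 0.47, 0.31, -0.76 and -0.70 in knockout replicates 1 to 4 relative to the wild-type mean. Its mean shift was -0.17 (exact permutation p = 0.629, the same after adjustment). The sign of this shift was thus positive in replicates 1 and 2 and negative in replicates 3 and 4, a contrast between arrays that was not tested.

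Csf2rb2, the neighbour and close copy of Csf2rb, did fall. Its log2 signal was 3.75, 3.70, 4.21 and 3.91 in knockout, against 4.83, 4.94 and 4.81 in wild type, with no overlap. The difference was -0.97 (SE 0.13, limma adjusted p = 0.00114, and 0.0554 with the similar arrays as random blocks). The beta chain genes are near-identical copies, so cross-hybridisation between their probe sets cannot be checked here, and the signals assigned to each are uncertain.

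**Figure D2:**
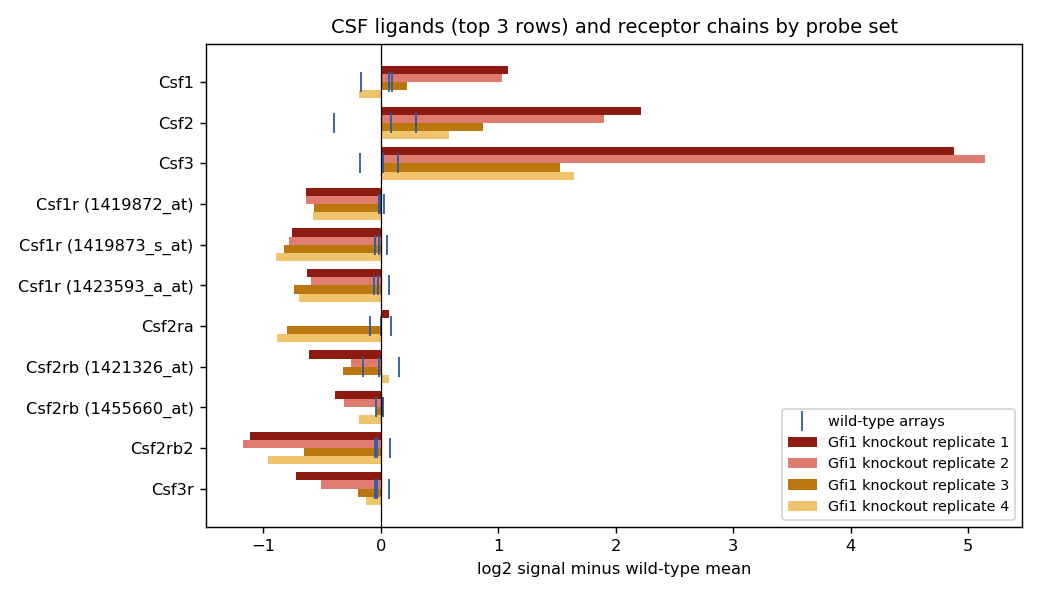
Log2 signal minus the wild-type mean for each probe set of the CSF ligands (Csf1, Csf2, Csf3) and receptor chains, with 1 bar per Gfi1 knockout array and blue ticks for the wild-type arrays. All 3 Csf1r probe sets and Csf2rb2 are lower in every knockout array, while the ligand bars are longest in replicates 1 and 2 (Csf3 at 4.88 and 5.15).

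The other CSF ligands measured were higher in knockout. Csf3, which encodes G-CSF, had log2 signals of 8.93, 9.19, 5.57 and 5.69 in knockout replicates 1 to 4, against 4.07, 4.20 and 3.87 in wild type. Replicates 1 and 2 were far above replicates 3 and 4, and all 4 were above wild type. The difference was 3.30 (SE 0.98, limma adjusted p = 0.0311). Csf2, which encodes GM-CSF, had 5.51, 5.19, 4.17 and 3.87 in knockout, against 2.90, 3.60 and 3.38 in wild type. It rose by 1.39 (SE 0.42, adjusted p = 0.0317), but its wild-type mean of 3.29 lay among the lowest 5% of genes (below 3.51), so the size of this rise is uncertain.

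The Csf3 and Csf2 calls were not stable when single arrays were left out. Each was lost without any 1 of wild-type replicates 1, 2 and 3 or knockout replicates 1 and 2. Over all single-array omissions the difference of Csf3 ran from 2.68 to 3.89 (adjusted p from 0.0151 to 0.0942) and that of Csf2 from 1.12 to 1.66 (adjusted p from 0.0134 to 0.112). With the similar arrays treated as random blocks, adjusted p was 0.0901 for Csf3 and 0.227 for Csf2, while Csf1r kept its call at 0.0310. These blocks were the wild-type arrays, knockout replicates 1 and 2, and knockout replicates 3 and 4. Each block held 1 group only, so few independent blocks stand behind these p-values. An offset of 16 added to the signal before log2, which shrinks differences of dim genes, gave 2.54 for Csf3 (adjusted p = 0.0517), 0.73 for Csf2 (adjusted p = 0.0503) and -0.55 for Csf2rb2 (adjusted p = 0.00109).

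Of the 14 listed relatives of the members (other ligands, receptor chains and receptor kinases), 5 were measured, of which 2 rose and 3 fell (43.1% of all genes passed). Besides Csf2, Csf3 and Csf2rb2, these were Kitl, the ligand of the KIT receptor kinase (-1.16, SE 0.11, adjusted p = 0.000356), and Pdgfrb, the PDGF receptor kinase gene that lies next to Csf1r in the genome (-1.19, SE 0.09, adjusted p = 0.000117). The Pdgfrb mean of 2.71 in knockout was among the lowest 5% of genes, against 3.90 in wild type, so its size is also uncertain, and with the offset of 16 it was -0.46.

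**Figure D3:**
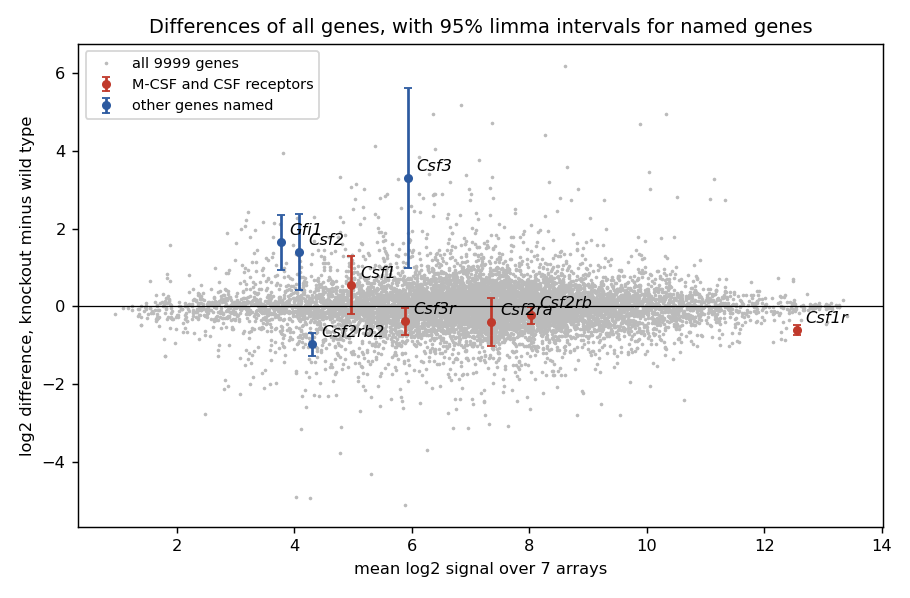
Log2 difference (knockout minus wild type) of all 9999 genes against mean log2 signal over 7 arrays, with M-CSF and the CSF receptors in red, 4 other genes in blue, and 95% limma intervals. Csf1r lies at the bright end with a narrow interval below 0 (-0.73 to -0.47), and the interval of Csf1 spans 0.

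Of 30 listed adaptors, kinases and effectors of CSF receptor signalling, 22 were measured. Of these 9 fell and 1 rose, beside 21.6% and 21.5% of all genes, and 12 did not pass. That is 45.5% called, against 43.1% of all genes, with a median difference of -0.06. The largest falls were in Sos1, a Ras exchange factor (-1.73, SE 0.31), the Src family kinase gene Fgr (-1.23, SE 0.09), the PI3-kinase regulatory subunit gene Pik3r1 (-1.14, SE 0.07) and Tyrobp, an adaptor that relays signals to SYK and the brightest of the list (-0.92, SE 0.06). For Sos1 the probe sets disagreed, and their mean gave -0.37 (adjusted p = 0.104). The gene that rose was Stat3, a transcription factor activated by the G-CSF receptor (0.47, SE 0.06, adjusted p = 0.0012, and 0.126 with the similar arrays as random blocks).

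Of 23 listed negative regulators and processing enzymes, 20 were measured, of which 8 rose, 3 fell and 9 did not pass (55% called, against 43.1% of all genes, with 21.5% higher and 21.6% lower; median 0.22). Socs3, the feedback inhibitor of the G-CSF receptor, rose in every knockout array by a similar amount, at 2.49, 2.39, 2.38 and 2.32 above the wild-type mean (difference 2.40, SE 0.06, adjusted p = 3.97e-06). Cish, an inhibitor induced by STAT5, rose by 1.26 (SE 0.09), Socs2 by 1.27 (SE 0.17) from a wild-type signal among the lowest 5% of genes, and the Ras pathway inhibitor gene Spry2 by 0.73 (SE 0.10). Lower in knockout were Cbl, the ubiquitin ligase that directs M-CSF receptor turnover (-0.57, SE 0.08), Adam17, a protease that sheds that receptor (-0.55, SE 0.08), and the lipid phosphatase gene Inpp5d (-0.33, SE 0.10). Unlike Adam17, the listed gene Adam10 rose by 0.38 (SE 0.07, limma adjusted p = 0.00498). The probe sets of Cbl and Inpp5d disagreed, with means of -0.07 and 0.03, and the Inpp5d call was also lost without any 1 of wild-type replicates 1 to 3 or knockout replicate 3 (adjusted p from 0.0573 to 0.102). With the similar arrays as random blocks Socs2, Spry2, Cbl, Adam17 and Inpp5d did not pass (adjusted p from 0.0659 to 0.334). Spred1, the brightest of the list, stood at 0.01 (SE 0.10, adjusted p = 0.931), and its probe sets disagreed in sign.

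Of 20 listed transcription factors reported to act on CSF receptor genes, 14 were measured. Of these 6 fell and 4 rose, beside 21.6% and 21.5% of all genes, and 4 did not pass. That is 71.4% called, against 43.1% of all genes, with a median of 0.10. Cebpa, which activates Csf3r and myeloid genes, fell by 1.49 (SE 0.20, adjusted p = 0.00116), with differences of -1.94, -1.62, -1.12 and -1.26 in knockout replicates 1 to 4. Spi1, which encodes PU.1, the main activator of Csf1r, fell by 0.43 (SE 0.07, adjusted p = 0.00376). In contrast Ets2 rose by 1.71 (SE 0.20), Cebpd by 1.01 (SE 0.31), the zinc finger gene Egr1 by 0.75 (SE 0.08) and Cebpb, the brightest of the list, by 0.31 (SE 0.06). The call of Cebpd ended without any 1 of 5 arrays (wild-type replicates 1 to 3 and knockout replicates 3 and 4, adjusted p from 0.0589 to 0.107). With the similar arrays as random blocks Spi1, Cebpb and Cebpd did not pass (adjusted p = 0.230, 0.236 and 0.152).

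Of 15 listed genes reported to respond to CSF1 or to JAK2 and STAT5 signals, 14 were measured, of which 7 rose, 1 fell and 6 did not pass (57.1% called, against 43.1% of all genes, with 21.5% higher and 21.6% lower; median 0.54). Id1, an inhibitor of differentiation, rose by 2.59 (SE 0.35), the kinase gene Pim1 by 2.46 (SE 0.21), the cytokine gene Osm by 2.11 (SE 0.51) and the survival gene Bcl2l1 by 1.64 (SE 0.24). Without wild-type replicate 1 or 2 Osm no longer passed, at adjusted p = 0.0507 and 0.0547, nor with the similar arrays as random blocks (0.0526). The gene that fell was the chemokine receptor gene Ccr2 (-1.25, SE 0.09), to a knockout mean of 3.31, among the lowest 5% of genes. Mcl1, the brightest of the list, stood at 0.14 (SE 0.12, adjusted p = 0.342), and the mean of its probe sets gave -0.51. Many of these genes also respond to other stimuli, and no single response is named by the list.

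**Figure D4:**
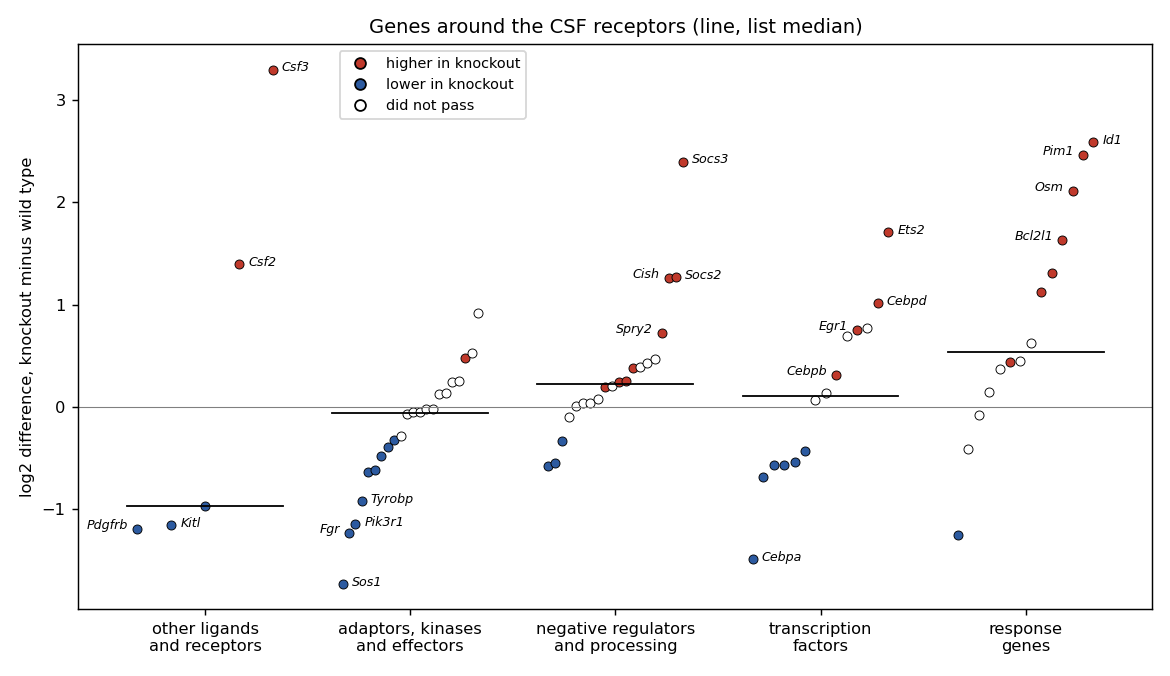
Log2 difference (knockout minus wild type) of each measured gene in 5 lists around the CSF receptors, ordered by size within a list, with red for genes higher and blue for genes lower in knockout past the threshold, white for those that did not pass, and a line at the list median. The adaptor list holds 9 lower genes and 1 higher gene, and the response list 7 higher genes and 1 lower gene. Of all genes 21.6% were lower and 21.5% higher.

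The genes whose log2 signal most resembled each member over the 7 arrays were found by Pearson correlation, among genes with a range between 0.5 and 2 times that of the member. The arrays form tight clusters, so high values are common and are given as a description. For Csf1r these were Lipa, a lysosomal acid lipase gene (r = 0.999), Psap, the precursor of lysosomal saposins (0.999), and Nqo2 (0.999), and 615 of 6986 candidates exceeded 0.95. Lipa fell by 0.91 (SE 0.06) and Psap by 1.18 (SE 0.07), evenly over the knockout arrays as Csf1r did.

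For Csf1 the most similar genes were Bsdc1 (0.990), Zbtb21 (0.986) and Sgcb (0.983), each about 0.8 to 1 log2 unit above wild type in replicates 1 and 2 and near it in replicates 3 and 4. For Csf3r they were Ift140 (0.991), Frmd4a (0.989) and Ate1 (0.989). For Csf2ra they were Cd300ld, a myeloid surface receptor gene (0.989), Tnfrsf1b, a TNF receptor gene (0.989), and Pld1, a phospholipase gene (0.988). Tnfrsf1b stood at 0.13, -0.03, -1.11 and -1.05 in knockout replicates 1 to 4 relative to wild type, the same split as Csf2ra. For Csf2rb they were Ttc21b (0.997), Rfc5 (0.990) and Pts (0.987). No gene was named for more than 1 member.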

How the data were processed

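RNA of 7 RAW264.7 samples was measured on Affymetrix arrays. The authors deposited 1 intensity per probe set and array, on a linear scale as the values show, and RMA is named in the submitters' processing notes without a version, so array-wide shifts of RNA content cannot be read. Detection calls were not used, and precision is limited by the number of arrays. Of 19431 probe sets, 17335 had 1 gene symbol in the platform annotation, 532 had several and 1564 had none. Values were log2 transformed and each of 9999 genes was represented by its brightest single-symbol probe set.

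Knockout and wild type were compared with limma 3.58.1 in R 4.3.3 over all genes (2 groups, moderated two-sided tests, Benjamini-Hochberg, threshold 0.05), after a test on simulated data. Gene pairs were compared by exact permutation over arrays. Members, lists and alternatives were chosen with earlier results of these data known. Named were the members, Gfi1, up to 4 passing genes per list by size plus its brightest gene, and the 3 genes most like each member. Other genes (Csf2rb2, Stat3, Cbl, Adam17, Adam10, Inpp5d, Spi1 and Ccr2) were named after their values were seen. Of these, Adam10 was not followed through the alternatives. Alternatives were quantile normalization, median centring, omission of dim genes (below percentile 40), a trended robust prior, array weights, the mean of probe sets, an offset of 16, a replicate block, each array left out, and 4 treatments of the similar knockout arrays (averaged, random blocks, or either pair left out).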

Additional observations from a re-analysis of the deposited data

How the results depend on the processing

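Csf1r stayed lower in knockout and past the threshold in all 19 alternatives (-0.69 to -0.57, adjusted p up to 0.0310). The other members depended on which knockout arrays entered. Without knockout replicates 3 and 4, 6814 genes passed, and Csf1 (1.06), Csf3r (-0.62) and Csf2rb (-0.35) passed, while Csf2ra turned to 0.036 and Csf2ra minus Csf2rb to 0.39, and signs also turned for Cd300ld (0.026), Tnfrsf1b (0.053), Pld1 (0.041), Mcl1 (-0.031) and Spred1 (-0.12). Without replicates 1 and 2, Csf2ra passed at -0.84. Array weights brought Csf3r (-0.33), Csf2ra (-0.52) and Csf2rb (-0.21) past the threshold. The fit with a replicate block, in which knockout replicate 4 has no partner and so does not enter the difference, did so for Csf1 (0.78) and Csf3r (-0.48), turned Spred1 to -0.025 and left 3805 genes called. Its differences equal those without knockout replicate 4. With an offset of 16, differences shrank by over 1.5 times for the dim genes Gfi1 (to 0.75), Socs2 (0.53) and Ccr2 (-0.61), with their calls kept. Pdgfrb (to -0.46), Csf2 (0.73), Csf2rb2 (-0.55) and Itgax (-0.17) also shrank by over 1.5 times, and Csf2 lost its call. Csf1 shrank by less (to 0.37). The mean of probe sets turned Spred1 (-0.20), Mcl1 (-0.51) and Inpp5d (0.032). With similar arrays as random blocks 904 genes passed. Of 54 other named genes, some of which (such as Spred1 and Mcl1) had no call to lose, 18 lost theirs. The cause was not tested. With single arrays left out, 2879 to 4465 genes passed (1404 of them higher without wild-type replicate 3 and 1379 without replicate 2), and differences ran from 0.36 to 0.78 for Csf1, -0.61 to -0.59 for Csf1r, -0.48 to -0.28 for Csf3r, -0.56 to -0.24 for Csf2ra, -0.29 to -0.18 for Csf2rb, -0.39 to 0.024 for Csf2ra minus Csf2rb and -0.039 to 0.072 for Spred1. Deviations of same-numbered arrays correlated at 0.124, -0.0902 and 0.106, and those of knockout replicate 2 and wild-type replicate 1 at 0.123. As the knockout arrays form similar pairs, these values cannot decide whether replicate numbers pair the arrays. Csf1 and Csf3r were too dim for the fit without dim genes. Permutation tests with 5 or 6 arrays cannot reach the threshold, and with all arrays a single pair cannot reach it after adjustment over the gene pairs.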

Other observations

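Among the listed markers of other cell types, the few that were measured are given here as values. Pdgfrb, described above with its uncertain size, was the 1 measured gene of 7 fibroblast markers (-1.19). Blnk, an adaptor of B cell receptor signalling and the 1 measured gene of 6 B cell markers, had a difference of -2.79 (SE 0.07, limma adjusted p = 3.97e-06), with -2.82, -2.75, -2.85 and -2.75 in knockout replicates 1 to 4 relative to wild type. Of 6 erythroid markers 2 were measured, with Hba-a2 at -0.68 (0.0674 as adjusted p with the similar arrays as random blocks) and Epor at 0.20 (adjusted p = 0.302), and of 6 dendritic cell markers Itgax was measured, at -0.30 (adjusted p = 0.0645).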
